A study of Mus musculus with 4 samples.

Results

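Integrins and laminins were described in otic vesicles of Meis2 mutant and wild-type mouse embryos, from gene-level TPM values, a unit of transcript abundance that sums to the same total in each library. The genes were chosen by name: protein-coding genes with a symbol beginning Itga, integrin beta chains Itgb1 to Itgb8 and laminin chains of the Lama, Lamb and Lamc series. The rule gave 37 genes, 26 integrins and 11 laminins, of 21782 protein-coding genes and 34866 genes in all. The otic vesicle is the epithelial sac from which the inner ear develops. Meis2 is a DNA-binding regulator of the TALE homeobox family. There were 2 libraries of Meis2 mutants (KO 1 and KO 2) and 2 wild-type libraries (WT 1 and WT 2), all from C57/BL6 embryos at embryonic day 11.5. The labels name neither the Meis2 allele nor the number of embryos or vesicles in a library, so p-values reflect only how far the libraries of a genotype lie apart, which may be technical.

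Laminins are secreted trimers of an alpha, a beta and a gamma chain that polymerise into the sheet on which a basement membrane is built. Integrins are cell surface receptors made of an alpha and a beta chain. The alpha chain largely decides which matrix protein is bound, and the beta chain connects to the actin cytoskeleton through talin and kindlin. In the ear, a basement membrane surrounds the otic epithelium and separates it from the periotic mesenchyme.

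All 14 otic epithelium markers checked were present in every library, with summed levels of 1465 and 1529 TPM in KO and 1896 and 1695 TPM in WT. Meis2 transcripts were at 73.2 and 76.6 TPM in KO and 79.0 and 88.7 TPM in WT, which does not check the genotype labels, because no label names the altered stretch of Meis2. The libraries were not pure epithelium: all 15 periotic mesenchyme markers were also present, at a summed 1555 TPM in KO 1, 1049.6 in KO 2, 1133 in WT 1 and 956 in WT 2. Y-linked transcripts (4 genes) summed to 2.07 TPM in KO 1 and 123 in KO 2, and to 30.3 in WT 1 and 3.04 in WT 2, so the libraries differed in this respect within each genotype. Sequencing depth cannot be read from TPM and is unknown. In such whole-tissue libraries, fewer cells of a type and less RNA per cell cannot be told apart.

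Integrin transcripts were dominated by a few chains. Itgb1, the beta chain shared by most matrix-binding integrins (chromosome 8, 128685654 to 128733200, GRCm38), was at 206 TPM in KO 1, 172 in KO 2, 195 in WT 1 and 153 in WT 2. In WT its mean level exceeded that of 96.2% of protein-coding genes, and it made up 70.8% to 71.0% of summed integrin beta transcripts in KO and 70.3% to 73.2% in WT. Itga6, an alpha chain of laminin receptors, came next at 86.9 and 87.7 TPM in KO and 94.9 and 92.4 TPM in WT. Itgb5, a partner of the alpha V chain, followed, and then Itga5, the alpha chain of the fibronectin receptor. From Itgb1 down to Itgav, the ranges of neighbours in this order over the 4 libraries did not overlap. From Itga2b down, every gene overlapped in range with the next.

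Among laminins, Lamb1, Lamc1 and Lamb2 had the highest levels, between 27.1 and 48.8 TPM over the 4 libraries, and their ranges overlapped from one to the next. Lama5, Lama4 and Lama1 followed. Lama3 was lowest, between 0.055 and 0.203 TPM. It encodes an alpha chain of epidermal basement membranes. All 37 genes were above 0 in at least 1 library.

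**Figure D1:**
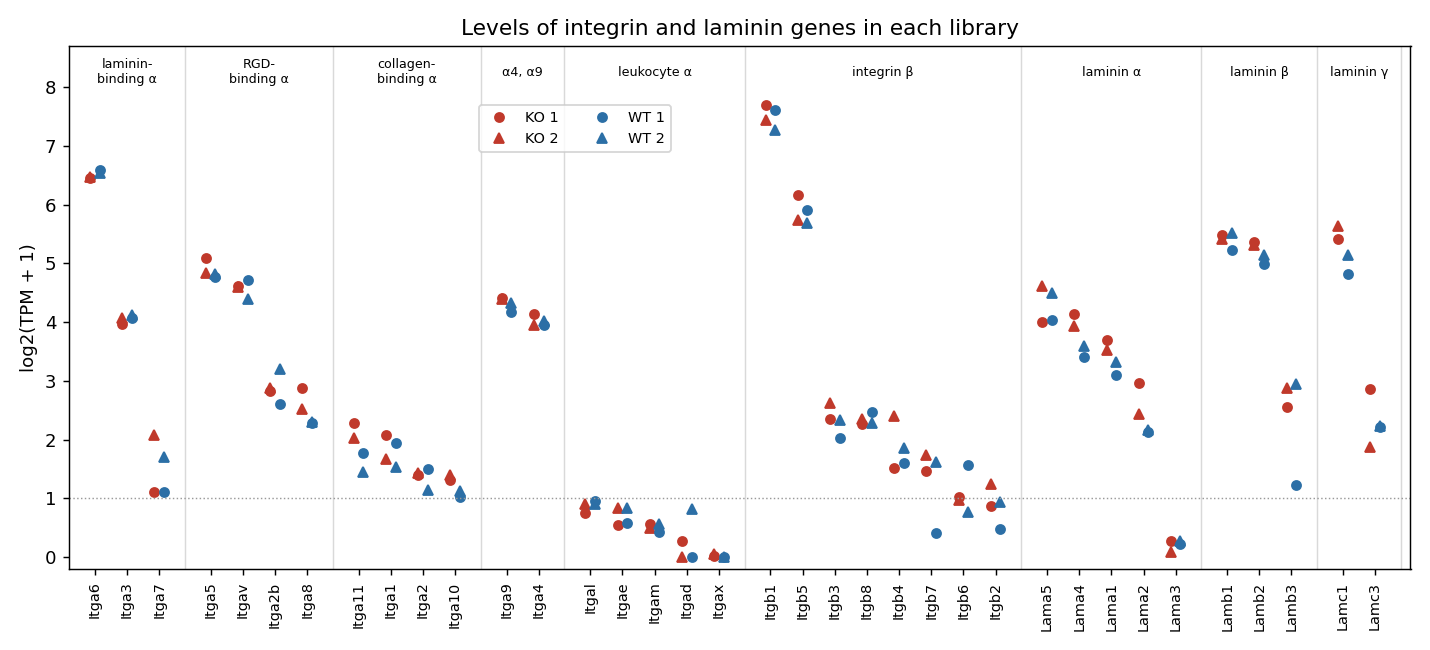
Level of integrin and laminin genes in each library, as log2(TPM + 1) on the vertical axis, grouped by chain type, with KO in red and WT in blue, circles for libraries numbered 1 and triangles for those numbered 2. The dotted line marks 1 TPM. Itgb1 stands highest, and the leukocyte alpha chains and Lama3 lie below the line in all libraries.

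Genes averaging 1 TPM or more across the libraries were tested with limma on log2(TPM + 1), and differences below are KO minus WT on that scale, which understates changes of low genes. Of the 37 genes, 30 passed this filter, 20 integrins and 10 laminins. None of the 30 passed the threshold of 0.05 after Benjamini-Hochberg adjustment over all 14496 genes tested, where 0 genes passed (0% of all tested; smallest limma adjusted p = 1.00). At an unadjusted limma p under 0.05 there were 4 of the 30, all laminins and all higher in KO, which is 13.3% of them against 3.50% of all genes tested (2.09% higher and 1.41% lower in KO). This count was 0 without WT 1, 1 without KO 1, 2 with median-of-ratios scaling and 2 with quantile normalization, and between 3 and 5 in each of the other fits. Libraries of KO and WT did not overlap for 11 of the 30 on the higher side (36.7%, against 19.2% of all genes tested) and for 1 on the lower side (10.5% of all), or 40% in either direction, against 29.8% of all. A difference of at least 0.5 on the higher side was found for 6 of the 30, against 2.55% of all genes tested. KO 1 exceeded WT 1 for 21 of the 30 (57.9% of all genes) and KO 2 exceeded WT 2 for 23 (59.4% of all). No test was made of these shares.

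Laminin transcripts stood higher in KO as a sum. The 11 genes together were at 191 TPM in KO 1 and 195 TPM in KO 2, against 141 TPM in WT 1 and 172 TPM in WT 2. Both KO sums lay above both WT sums, and the log2 difference of the sums was 0.31 (exact permutation test over libraries, two-sided p = 0.3333, the smallest that 2 against 2 libraries can give). Without WT 1 the difference was 0.17. The median difference of the 10 tested laminins was 0.33, beside 0.03 over all genes tested. All 10 had a difference above 0, against 61.6% of all genes tested. With median-of-ratios scaling 9 of 10 were above 0 (50.7% of all genes) and with quantile normalization 8 of 10 (50% of all genes), and without WT 1 it was 7 of 10 (57.0% of all genes).

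Lama4 had the smallest p of the 37 genes. It encodes an alpha chain known from basement membranes of blood vessels and from mesenchymal tissues (chromosome 10, 38965515 to 39110188). Its level was 16.5 TPM in KO 1 and 14.3 TPM in KO 2, against 9.55 TPM in WT 1 and 11.04 TPM in WT 2. The lower KO library stood above the higher WT library. The difference was 0.54 (SE 0.14, 95% interval 0.18 to 0.90, limma adjusted p = 1.00), and it ranked 106 by p among all genes tested. It remained between 0.44 and 0.64 when any 1 library was left out.

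Lamc1, the gamma chain of most laminin trimers (chromosome 1, 153218922 to 153332786), was at 41.6 TPM in KO 1 and 48.8 in KO 2, against 27.1 in WT 1 and 34.3 in WT 2. The genotypes did not overlap, and the difference was 0.55 (SE 0.15, 95% interval 0.15 to 0.94, limma adjusted p = 1.00). Lamc1 stood 0.95 and 1.17 times as high as Lamb1 in KO, against 0.74 and 0.77 times in WT. Lamb1, the beta chain found with it in most early basement membranes, was itself at 43.8 and 41.8 TPM in KO and 36.6 and 44.5 TPM in WT. Its genotypes overlapped (difference 0.08, SE 0.12, 95% interval -0.23 to 0.39), with a sign that turned without WT 1.

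Lamb2, a beta chain of later basement membranes and of synapses in other tissues (chromosome 9, 108479736 to 108490530), was at 40.2 and 38.8 TPM in KO and 30.7 and 34.5 TPM in WT. Both KO libraries stood above both WT libraries. The difference was 0.27 (SE 0.093, 95% interval 0.03 to 0.52, limma adjusted p = 1.00). Lama1, the alpha chain of the first embryonic basement membranes (chromosome 17, 67697259 to 67822647), was at 11.9 and 10.5 TPM in KO against 7.55 and 8.99 TPM in WT. Again the genotypes did not overlap, with a difference of 0.40 (SE 0.15, 95% interval 0.01 to 0.78, limma adjusted p = 1.00).

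Lama2, the alpha chain of muscle and Schwann cell basement membranes (chromosome 10, 26980036 to 27619758), was at 6.83 TPM in KO 1 and 4.41 in KO 2, against 3.39 in WT 1 and 3.50 in WT 2. Its log2 difference was 0.55 (SE 0.23, 95% interval -0.06 to 1.16), and it was described in full after its values were seen. KO 1 stood apart from the other libraries, and without it the difference was 0.28. Lama5, an alpha chain common in developing epithelia and the one with the highest mean level here, followed the library number and not the genotype. It was at 15.1 TPM in KO 1 and 23.5 in KO 2, and at 15.4 in WT 1 and 21.6 in WT 2 (difference 0.04, SE 0.27).

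Lamb3 and Lamc3 varied between libraries without separating the genotypes. Lamb3, a beta chain of epidermal basement membranes, was at 4.85 and 6.34 TPM in KO and at 1.33 and 6.72 TPM in WT. WT 1 alone was low, and the Lamb3 difference of 0.63 (SE 0.60) became -0.24 without that library. Lamc3, a gamma chain of low abundance, was at 6.26 and 2.66 TPM in KO and 3.64 and 3.69 TPM in WT, so that the KO libraries lay on either side of WT.

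**Figure D2:**
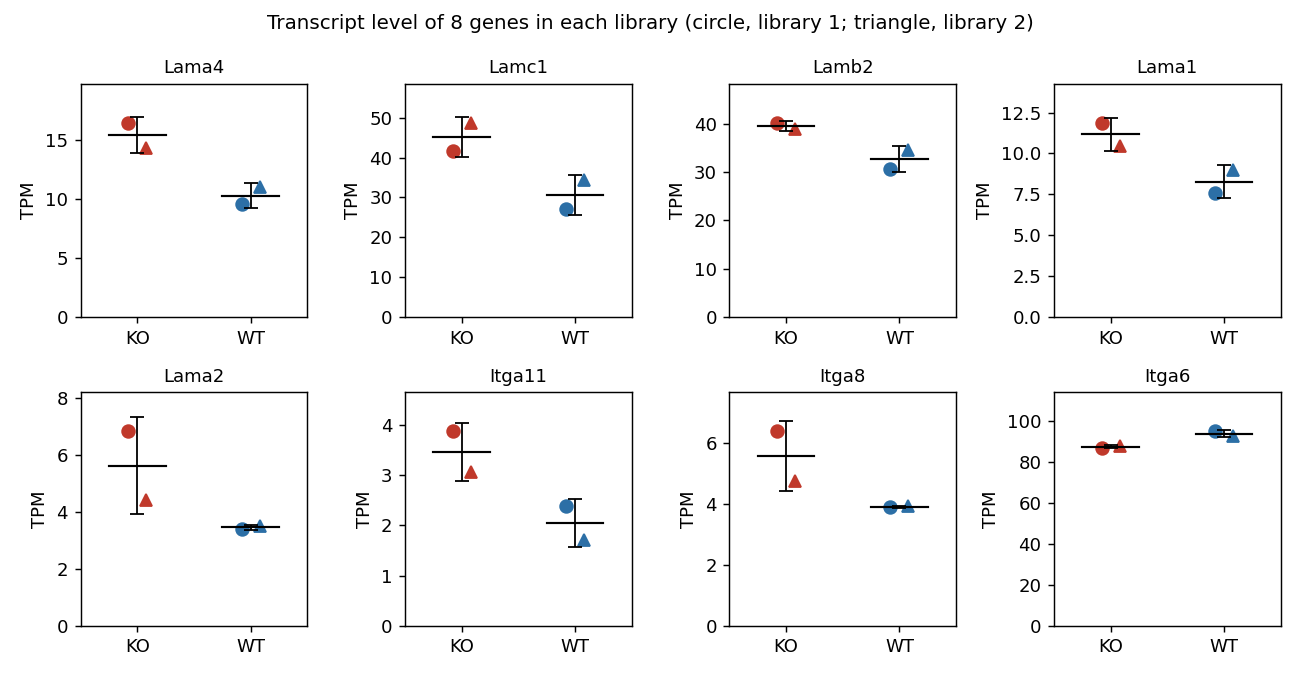
TPM of 8 genes in each library (vertical axis from 0), with KO in red left of WT in blue, circles for libraries numbered 1 and triangles for those numbered 2. Horizontal lines are means and bars are SD of the 2 libraries. In every panel except that of Itga6, both KO libraries lie above both WT libraries, and for Itga6 they lie below.

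By chain type, laminin alpha transcripts summed to 50.5 and 52.7 TPM in KO and 36.1 and 45.3 TPM in WT. Beta transcripts summed to 88.8 and 86.9 TPM in KO and 68.6 and 85.8 TPM in WT. Both sums were higher in both KO libraries than in both WT libraries, by a narrow margin for beta. Within the alpha chains, Lama4 made up 32.6% and 27.2% in KO and 26.5% and 24.4% in WT, while Lama5 made up 29.9% and 44.5% in KO and 42.7% and 47.7% in WT. KO 1 was the only library in which Lama4 exceeded Lama5.

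**Figure D3:**
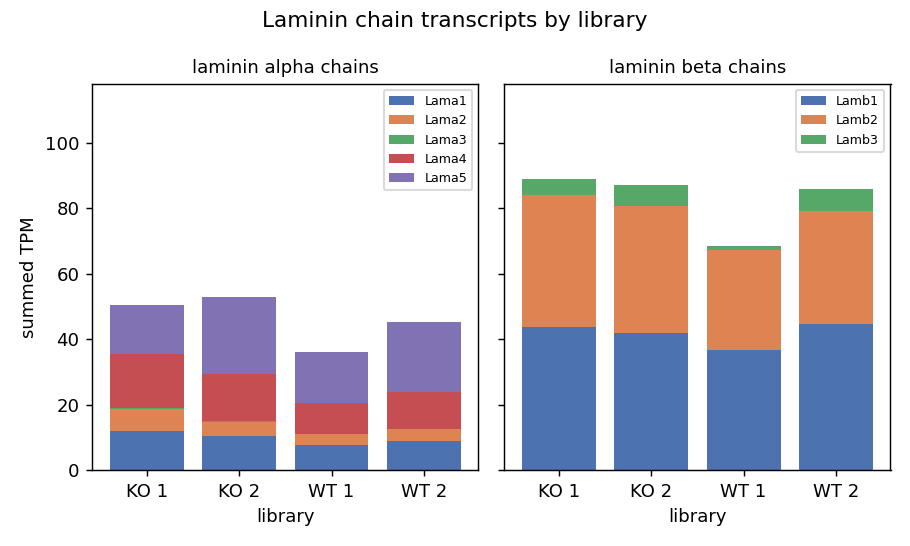
Summed TPM of laminin alpha and beta chains (vertical axis) in each library, with each bar divided by gene. The alpha bars are tallest in KO 2 and KO 1, at 52.7 and 50.5 TPM, and the beta bars consist mostly of Lamb1 and Lamb2.

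As a sum, integrin transcripts overlapped between the genotypes. The 26 genes together were at 511 TPM in KO 1 and 456 in KO 2, and at 479.5 in WT 1 and 431 in WT 2, a log2 difference of 0.09 (exact permutation test, two-sided p = 0.667). Both libraries numbered 1 stood above both numbered 2. The sum differed by 0.0048 without KO 1 and by 0.0098 without WT 2. Of the 20 tested integrins, 15 had a difference above 0 (75%, against 61.6% of all genes tested) and 5 below. Without KO 1 it was 11 of 20 (55%, against 59.3% of all). The count at an unadjusted limma p under 0.05 was 0 (3.50% of all genes), and 2 without KO 2 or without the trended prior. Their median difference was 0.14, which was 0.04 without KO 1 and 0.06 among those with a mean of at least 5 TPM. For Itgb1 the difference was 0.12 (SE 0.16, 95% interval -0.29 to 0.53), with a sign that turned without KO 1 or without WT 2.

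Of the 3 laminin-binding alpha chains, Itga6 and Itga3 had differences below 0 and Itga7 one above 0. Itga6 (chromosome 2, 71745616 to 71858416), given above, was lower in both KO libraries than in both WT libraries, with a small difference of -0.10 (SE 0.065, 95% interval -0.27 to 0.07, limma adjusted p = 1.00). Itga3, another receptor chain for epithelial laminins, was at 14.7 and 15.8 TPM in KO and 15.8 and 16.5 TPM in WT. The difference of Itga3 was -0.07 (SE 0.10), with overlap, and -0.023 without KO 1. Itga7, the laminin receptor chain of muscle, was at 1.15 and 3.22 TPM in KO and 1.15 and 2.24 TPM in WT, low in both libraries numbered 1. Itgb4, which pairs with the alpha 6 chain in hemidesmosomes, was at 1.86 and 4.30 TPM in KO and 2.03 and 2.63 TPM in WT. Itga6 transcripts were 46.7 and 20.4 times as abundant as those of Itgb4 in KO, and 46.8 and 35.1 times in WT.

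Collagen-binding alpha chains were low, and Itga11 and Itga10 were higher in both KO libraries than in both WT libraries. Itga11 (chromosome 9, 62677826 to 62783982), known as a collagen receptor of mesenchymal cells, had the smallest p among integrins. It was at 3.88 and 3.06 TPM in KO against 2.39 and 1.71 TPM in WT. The genotypes did not overlap, and the difference was 0.55 (SE 0.23, 95% interval -0.05 to 1.15, limma adjusted p = 1.00), between 0.39 and 0.71 with any 1 library left out. Itga10, a collagen receptor chain of cartilage, was at 1.47 and 1.62 TPM in KO and 1.03 and 1.18 TPM in WT. Itga1 was at 3.24 and 2.16 TPM in KO and 2.82 and 1.90 TPM in WT, and Itga2 at 1.63 and 1.70 TPM in KO and 1.83 and 1.201 TPM in WT. Both of these overlapped between the genotypes and changed sign without WT 2, and Itga1 also without KO 1. Itga1 shares its locus and strand with Pelo, a gene at a mean of 29.7 TPM. Whether the exons of these genes overlap, so that reads could be shared, was not checked.

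Among the chains that bind the RGD motif of matrix proteins, Itga8 (chromosome 2, 12106632 to 12301922) was at 6.38 TPM in KO 1 and 4.76 in KO 2, against 3.88 in WT 1 and 3.93 in WT 2. It encodes a receptor chain for nephronectin, and mutant mice of this gene have been reported with defects of kidney and of hair cell stereocilia. The WT libraries lay close together and both KO libraries above them (difference 0.41, SE 0.19, 95% interval -0.09 to 0.91, limma adjusted p = 1.00). Without KO 1 the difference was 0.23. Itga5 (chromosome 15, 103344286 to 103366763) was at 33.0 and 27.7 TPM in KO and 26.1 and 27.3 TPM in WT. Here KO 2 exceeded WT 2 by a small margin, and the difference was 0.17 (SE 0.12), or 0.05 without KO 1. Itgav, the alpha V chain, overlapped at 23.6 and 23.2 TPM in KO and 25.3 and 20.1 TPM in WT. Of its partners, Itgb5 was at 70.9 and 52.6 TPM in KO and 58.8 and 50.3 TPM in WT, and Itgb8 at 3.78 and 4.08 TPM in KO and 4.56 and 3.88 TPM in WT. Itgb6, an epithelial chain that activates latent TGF-beta together with alpha V, was at 1.03 and 0.957 TPM in KO and 1.97 and 0.699 TPM in WT, and its KO mean alone would have missed the filter.

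Itga9 (chromosome 9, 118606690 to 118901003), a receptor chain for tenascin and other ligands, was at 20.3 and 19.9 TPM in KO and 17.1 and 19.0 TPM in WT, a difference of 0.15 (SE 0.10) with no overlap, which was 0.073 without WT 1 and 0.22 without WT 2. Itga4, which binds fibronectin and Vcam1, was at 16.6 and 14.4 TPM in KO and 14.5 and 15.2 TPM in WT, with overlap. Cerkl lies on the opposite strand of the Itga4 locus and the pseudogene Gm10157 on that of Itga9, at means of 7.76 and 3.997 TPM. Haspin and G0s2 likewise lie opposite Itgae and Lamb3, at means of 13.7 and 3.88 TPM. No source used here says whether the libraries kept strand. Loci were compared as whole spans, so whether exons, and with them reads, are shared was not checked.

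Chains of blood cells were near the lower limit. The leukocyte chains Itgal, Itgae, Itgam, Itgad and Itgax, and the leukocyte beta chain Itgb2, all had a mean below 1 TPM and were not tested. Itgal was at 0.688 and 0.869 TPM in KO and 0.945 and 0.874 TPM in WT. Itgb2 was at 0.835 and 1.37 TPM in KO and 0.389 and 0.915 TPM in WT, and Itgam at 0.475 and 0.413 TPM in KO and 0.342 and 0.484 TPM in WT. Itgae was between 0.467 and 0.787 TPM, Itgad was listed at 0 in KO 2 and WT 1, and Itgax was listed at 0 in both WT libraries and at most at 0.038 TPM in KO. The 10 markers of macrophages and other leukocytes summed to 67.5 and 42.8 TPM in KO and 44.6 and 53.0 TPM in WT, with none at 0. Itgb7, a lymphocyte chain named after its values were seen, was at 1.77 and 2.32 TPM in KO and 0.328 and 2.06 TPM in WT. Only WT 1 was low, and the Itgb7 difference of 0.59 (SE 0.46) was -0.01 without that library.

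The platelet receptor chains were present at a few TPM. Itga2b was at 6.13 and 6.35 TPM in KO and 5.06 and 8.20 TPM in WT, with overlap. Itgb3, its partner in platelets and a partner of alpha V elsewhere, was at 4.07 and 5.16 TPM in KO and 3.09 and 4.04 TPM in WT. Its genotypes were separated by less than 0.1 TPM at the nearest libraries, with a difference of 0.30 (SE 0.21) that was 0.15 without WT 1 and 0.16 without KO 2. The 8 markers of platelets and megakaryocytes summed to 65.7 and 80.4 TPM in KO and 48.1 and 59.3 TPM in WT, with none at 0. These sums did not overlap between the genotypes. All 6 tested markers had a difference above 0 (100%, against 61.6% of all genes tested), with a median of 0.31. Of these, 3 were higher without overlap (50%, against 19.2% of all genes tested). The part of these markers in the Itgb3 values was not tested.

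**Figure D4:**
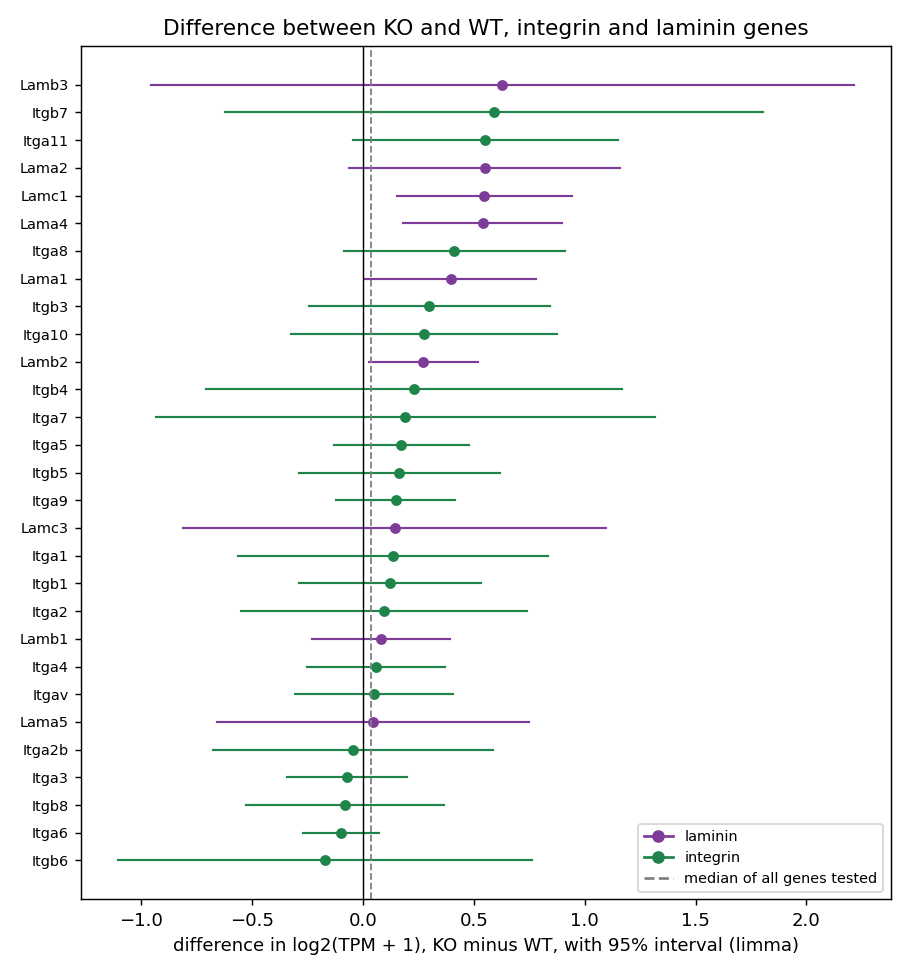
Difference in log2(TPM + 1), KO minus WT, of tested integrin and laminin genes, with limma 95% intervals on the horizontal axis. Laminins are purple and integrins green, and the dashed line marks the median of all genes tested, 0.03. The intervals of Lama4, Lamc1, Lama1 and Lamb2 lie above 0, before any adjustment for the number of genes.

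Markers of the tissue around the epithelium differed alongside part of these values. Of the 15 mesenchyme markers, 14 had a difference above 0 (93.3%, against 61.6% of all genes tested), with a median of 0.26. Their sum, given above, was highest in KO 1 but overlapped between the genotypes, since WT 1 exceeded KO 2. Itga11, Itga8, Lama2 and Lama4 were also highest in KO 1, but so were Lama1, Lamb2, Itga5, Itga9, Itgb1 and Itgb5, among others. In WT 1, where the mesenchyme sum exceeded that of KO 2, Lama4, Lama2 and Itga8 were at their lowest. Itga11, Itga8, Lama2 and Lama4 were picked with results known, and in each both KO libraries stood above both WT libraries. The same held for 3 of the 15 mesenchyme markers (20%, against 19.2% of all genes tested), and 1 was lower without overlap. The 10 endothelial markers summed to 335 and 273 TPM in KO and 269.8 and 292 TPM in WT, with overlap. Both KO libraries lay above both WT libraries for 6 of the 10 (60%, against 19.2% of all genes tested). A difference above 0 was found for 9 of the 10 (90%, against 61.6% of all genes tested). The exception, Pecam1, was at 38.7 and 31.3 TPM in KO and 42.2 and 54.9 TPM in WT. Its difference was -0.46 (SE 0.17), without overlap. Of the 14 otic epithelium markers, 11 were below 0 (median -0.20). Both KO libraries lay below both WT libraries for 9 of the 14 (64.3%, against 10.5% of all genes tested). The sums of these markers, given above, were also lower in KO without overlap. Lamc1 was highest in KO 2, where the mesenchyme and endothelial sums were lower than in KO 1. The part of these markers in the differences of integrins and laminins was not tested.

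The summed markers of several other cell types overlapped between the genotypes. Neuron markers summed to 313 and 919 TPM in KO and 379.7 and 636 TPM in WT, epidermis markers to 17.3 and 5.70 TPM in KO and 14.2 and 10.2 TPM in WT, and skeletal muscle markers to 21.5 and 28.2 TPM in KO and 26.9 and 32.3 TPM in WT. The epidermal genes Krt14 and Dsg3 and the muscle genes Myod1 and Myf5 were listed at 0 in at least 1 library. The 6 smooth muscle markers summed to 25.03 and 20.1 TPM in KO and 27.1 and 28.3 TPM in WT, without overlap, while 2 of the 3 tested had a difference above 0. Acta2, smooth muscle actin, was the exception, at 3.60 and 2.18 TPM in KO and 10.99 and 9.99 TPM in WT. The sums of erythroid and of neural crest and glia markers differed by -0.22 and -0.06 on the log2 scale, with overlap.

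Lama4, Lamc1 and Lama1, all at an unadjusted limma p under 0.05, had no window in the RefSeq table of GRCm38.p6. Promoters were read for the 4 genes of the set with the smallest p among the 23 that had a window in that table (26 windows). A window runs from 250 bases before to 50 bases after the annotated start, and is printed to show what stands there, since these 4 genes were higher in both KO libraries than in both WT libraries and Meis proteins bind DNA at the core TGACAG. Capitals mark this core on either strand (TGACAG or CTGTCA as read), and letters run 5′ to 3′ on the strand of the gene. The windows are chr10:27616893-27617192 for Lama2, minus strand, chr9:108479612-108479911 for Lamb2, plus strand, chr9:62677605-62677904 for Itga11, plus strand, and chr2:12301895-12302194 for Itga8, minus strand.
Itga11: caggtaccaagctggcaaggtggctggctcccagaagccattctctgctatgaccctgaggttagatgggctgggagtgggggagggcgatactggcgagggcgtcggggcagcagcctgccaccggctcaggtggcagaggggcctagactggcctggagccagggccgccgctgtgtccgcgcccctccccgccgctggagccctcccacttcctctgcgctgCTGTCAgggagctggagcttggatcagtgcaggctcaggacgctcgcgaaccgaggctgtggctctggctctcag
Lama2: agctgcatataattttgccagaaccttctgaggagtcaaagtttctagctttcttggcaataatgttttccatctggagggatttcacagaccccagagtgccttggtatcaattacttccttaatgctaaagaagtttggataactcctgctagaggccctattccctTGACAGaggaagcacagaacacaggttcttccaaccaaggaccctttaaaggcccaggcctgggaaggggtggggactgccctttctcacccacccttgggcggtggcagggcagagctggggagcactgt
Lamb2: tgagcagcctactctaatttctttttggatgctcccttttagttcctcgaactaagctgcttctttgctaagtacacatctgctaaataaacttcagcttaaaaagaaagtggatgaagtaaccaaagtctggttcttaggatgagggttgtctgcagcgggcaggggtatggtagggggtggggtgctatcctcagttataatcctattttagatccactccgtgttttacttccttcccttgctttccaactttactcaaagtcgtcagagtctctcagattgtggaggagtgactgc
Itga8: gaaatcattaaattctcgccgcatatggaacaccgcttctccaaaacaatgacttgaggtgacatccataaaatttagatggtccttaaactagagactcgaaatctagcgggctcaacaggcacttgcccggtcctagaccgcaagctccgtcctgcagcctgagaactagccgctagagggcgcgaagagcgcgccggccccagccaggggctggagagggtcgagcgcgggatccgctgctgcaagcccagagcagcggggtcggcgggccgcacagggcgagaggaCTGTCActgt
The core starts at position -25 from the annotated start in Itga11, at -81 in Lama2 and at 40 in Itga8. It is not among the letters of the Lamb2 window. The windows of Itga5, Itga9 and Itga10, genes also higher in both KO libraries than in both WT libraries, do not hold it either. The Lama2 window lies wholly inside the gene span given above, which begins at 27619758 on the minus strand. Its annotated start is therefore not the start of that span. Over the set, 7 of 26 windows held it (26.9%), those of Itga11, Itga2b, Itga8, Itgb5, Itgb6 (both of its windows) and Lama2, against 19.2% of all 32851 windows. The longer site of Meis with Pbx, TGATTGAC on either strand, shares its last letters with the first 4 of the core. It was in 0 of the 26 windows and in 0.770% of all windows. A match of letters is a description and shows no binding.

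The other genes of basement membranes and of integrin adhesion were read from lists. Of 17 tested genes of other basement membrane proteins, 0 passed the limma test after adjustment, 11 were higher (64.7%, against 61.6% of all genes tested) and 6 lower, with a median of 0.10. The smallest p belonged to Frem2, which encodes a protein that anchors embryonic epithelium to its basement membrane. Frem2 was lower, at 14.4 and 18.6 TPM in KO against 27.0 and 30.3 TPM in WT (difference -0.77, SE 0.15, limma adjusted p = 1.00). Nid2, which encodes nidogen 2, a binding partner of the laminin gamma 1 chain, was at 71.1 and 59.8 TPM in KO against 52.7 and 41.9 TPM in WT (difference 0.46, SE 0.15, and 0.30 without WT 2). Neither gene, both taken for the smallest p of this list, overlapped between the genotypes. Over the list, 4 of the 17 were higher and 2 lower without overlap (35.3% in either direction, against 29.8% of all genes tested).

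Among other integrin ligands, 17 of 23 tested genes were higher (73.9%, against 61.6% of all genes tested) and 6 lower (median 0.26), and 0 passed after adjustment. Npnt encodes nephronectin, the ligand of the receptor formed by the Itga8 and Itgb1 chains. It was at 12.5 and 11.1 TPM in KO against 14.4 and 16.3 TPM in WT, a difference of -0.36 (SE 0.12), so that the ligand stood lower and Itga8 higher in both KO libraries. Edil3, a secreted ligand of alpha V integrins, was at 6.70 and 8.44 TPM in KO against 5.13 and 5.22 TPM in WT (difference 0.47, SE 0.16). Fgb was listed at 0 in all 4 libraries and Fga in both KO libraries, and the mesenchyme marker Postn and the otic marker Cdh1 are in this list too.

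Of the 15 genes of laminin receptors other than integrins, 10 were higher (66.7%, against 61.6% of all genes tested) and 5 lower (median 0.08), with 0 passing after adjustment. Bcam, a surface receptor for the laminin alpha 5 chain, was at 56.6 and 58.7 TPM in KO against 74.8 and 98.2 TPM in WT. Its KO libraries lay close together below both WT libraries (difference -0.56, SE 0.14), and without WT 2 the difference was -0.37. Sntb1, a syntrophin of the dystroglycan complex, was at 4.99 and 4.61 TPM in KO against 3.33 and 3.05 TPM in WT (difference 0.47, SE 0.16).

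Among 32 integrin adaptors and signalling genes, 24 were higher (75%, against 61.6% of all genes tested) and 8 lower, with a median of 0.04, close to that of all genes tested, and 0 passed after adjustment. Sharpin, an inhibitor of integrin activation, was at 37.5 and 36.9 TPM in KO against 29.0 and 29.7 TPM in WT (difference 0.33, SE 0.077). Fermt1, the kindlin of epithelia, was at 4.63 and 3.62 TPM in KO against 6.01 and 6.40 TPM in WT (difference -0.50, SE 0.17). Both were taken for having the smallest p of this list, and both separated the genotypes, in opposite directions. Over the list, 7 of the 32 were higher and 1 lower without overlap (25% in either direction, against 29.8% of all genes tested).

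**Figure D5:**
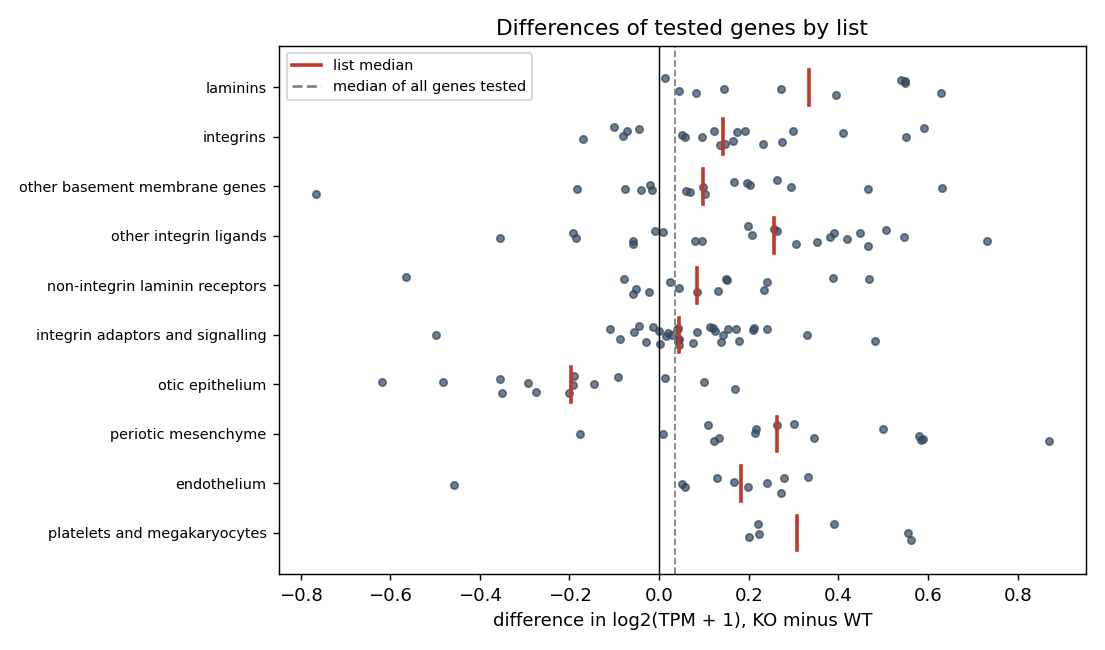
Difference in log2(TPM + 1), KO minus WT, of the tested genes of each list (points), with list medians in red and the median of all genes tested as a dashed line. Laminins have a median of 0.33, integrins of 0.14, adaptors of 0.04 and otic epithelium markers of -0.20.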

How the data were processed

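RNA was measured by sequencing in 4 libraries. The authors deposited gene-level TPM, made with Salmon 0.9.1 on the genome build GRCm38, per the submitters' processing notes; the annotation release is not stated. The steps of the values look like averages over several runs, which no source states. Groups and replicate numbers came from the sample titles. Gene IDs were matched by number to GENCODE M21 (GRCm38), which named 34582 of 34866 genes and gave coordinates. The main test was limma 3.58.1 (R 4.3.3) for genes averaging 1 TPM or more, on log2(TPM + 1). The model held genotype alone and used the trended prior; p-values are two-sided and were adjusted by Benjamini-Hochberg over 14496 genes, with a threshold of 0.05. The fit was tested on simulated data with differences larger than those described here. It does not show how often differences of the reported sizes would pass. Intervals are limma's moderated 95% intervals. The genes, lists and named genes were chosen with earlier results of these data known. Named in full were genes with an unadjusted p under 0.05, the 3 integrins and 3 laminins with the smallest p, the most abundant gene of each chain group and 2 genes of each pathway list. Differences of Lama2, Lamb3, Itgb7, Itgb3 and Itga3 were added after their values were seen. So were the values of Pecam1 and Acta2, named as exceptions of their marker lists. Promoter windows came from RefSeq. The alternatives were other pseudocounts, filters, scalings and moderation, protein-coding genes only, a replicate block and leaving out each library. Values of 1 laminin gene are not reported here; it is included in the counts, medians and sums.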

Additional observations from a re-analysis of the deposited data

How the results depend on the processing

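No integrin or laminin gene passed the adjusted threshold in any of the 13 alternative fits. Over all genes, 0 passed in 11 of them, and leaving out 1 library gave between 0 and 10 genes. Of the 30 tested genes, 11 were higher in KO and 3 lower in every fit that gave a value, and 16 changed sign in at least 1; several of these fits cannot alter a gene's difference. The integrin median was 0.057 for genes averaging 5 TPM or more, 0.11 with no filter and 0.10 with a pseudocount of 5 TPM, and between 0.044 and 0.16 with a library left out. The laminin median lay between 0.24 and 0.45 with a library left out. Lama5 was at -0.0057 with quantile normalization, and between -0.26 and 0.35 with a library left out. In the same fits Lamb1 lay between -0.057 and 0.22, Lamb3 between -0.24 and 1.49, Itgb1 between -0.051 and 0.30, and Itgb7 between -0.011 and 1.19. The cause was not tested. Genes at an unadjusted p under 0.05 numbered 507, but 951 with no filter, 1178 with the replicate block and 336 without WT 2. With the replicate number as a block, 0 genes passed after adjustment; in this balanced design a block cannot alter the differences, only their errors. Same-numbered libraries deviated together (r = 0.42 across 14496 genes, which are not independent), but 2 shared numbers do not show a pairing. Depth is unknown, so no counting error can be given for the low chains.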
